A study of Mus musculus with 2 samples.

Results

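MHC class I molecules are the surface proteins that show peptides from inside a cell to CD8 T cells. A heavy chain and the light chain beta-2 microglobulin fold together in the endoplasmic reticulum, where the TAP transporter brings in peptides cut by the proteasome, ERAP1 trims them and tapasin holds the heavy chain beside TAP until a peptide fits. NLRC5 is the transactivator that acts on class I genes and several of their loading partners, and interferon is a well-known inducer of the whole set. In tumour cells, loss of any of these parts is a known route to lower display of peptides.

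The 10 genes described here are 3 that encode the classical heavy chains and the light chain (H2-D1, H2-K1, B2m), 2 non-classical heavy chains (H2-T23, H2-Q4), 4 genes of peptide supply and loading (Tapbp, Tap1, Tap2, Erap1) and the transactivator Nlrc5. They were chosen by symbol, and all 10 were found among the 21983 gene entries of the deposited count table. The cells were 14837 cells, a mouse line of pancreatic ductal adenocarcinoma (PDAC) of the C57BL/6 strain, cultured in DMEM with 10% fetal bovine serum and penicillin. For 48 h they received conditioned medium, that is, medium in which other cells had grown, either from fibroblasts of tumour tissue (cancer-associated fibroblasts, CAFs) or from 14837 cells themselves, and 1 library was described per medium. Only the column named for CAF could be tied to a library, that of the CAF medium, because the name of the other column matched neither library's labels. The values are therefore levels within 1 library of 1 cell line. They carry no replicate error, no test, and no statement on what the CAF medium changed.

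The library held 21269197 counts, of which the 10 genes took 0.289%. Levels are given as counts per 1000000 counts of the library (CPM), with exact Poisson 95% intervals that cover counting error only. Among the 11569 entries with at least 10 counts the median gene stood at 37.9 CPM. By this definition as many of these entries lie above the median gene as below it. Over all entries the median was lower, at 0.94 CPM. Counts of listed genes above the median gene describe each list and were not tested. Longer transcripts collect more counts, so genes are compared with each other by CPM per kilobase of their longest protein-coding transcript, a scale on which the median coding gene stood at 11.9. Of 8 ductal epithelial markers, 6 exceeded the median gene, led by the keratins Krt18 at 1819 CPM, Krt8 at 797 CPM and Krt7 at 550.2 CPM, whereas Epcam, a surface protein of many epithelia, had 2 counts. Of 10 leukocyte markers, the genes of cells with strong antigen presentation of their own, 9 had under 10 counts, with Itgax at 2 counts, Ptprc and Adgre1 at 1, and Csf1r, Itgam, Cd3e, Lyz2 and Tyrobp listed at 0. The remaining leukocyte marker, Cd68, stood at 5.69 CPM. Of 9 fibroblast markers, 6 had under 10 counts, with Pdgfrb at 1 and Col1a2, Col3a1, Dcn, Lum and Thy1 listed at 0, while Pdgfra stood at 34.2 CPM, Col1a1 at 1.36 CPM and Fap at 1.22 CPM. All 5 endothelial markers had under 10 counts (Pecam1 5, Tek and Vwf 4 each, Cdh5 and Kdr 0). Beside these marker tallies, 47.4% of all entries had under 10 counts and 36.6% were at 0. The respiratory genes Atp5a1 and Uqcrc1, which every cell uses, were also listed at 0, so a value of 0 in this table is not read as absence of the transcript.

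The classical heavy chain genes are close relatives, and the stretch of H2-D1 coding sequence that differs most from H2-K1 and H2-Q4 is shown because these differences decide whether a read can be told apart. Capitals mark the bases of H2-K1 and H2-Q4 that differ from H2-D1. The sequences are from the GENCODE M21 transcripts of mm10, and positions count from the A of the start codon (520 to 594 in H2-D1, 511 to 585 in H2-K1, 595 to 669 in H2-Q4).
H2-D1: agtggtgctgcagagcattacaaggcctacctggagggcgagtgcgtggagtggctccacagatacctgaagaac
H2-K1: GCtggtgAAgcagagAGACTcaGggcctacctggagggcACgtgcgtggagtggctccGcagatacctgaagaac
H2-Q4: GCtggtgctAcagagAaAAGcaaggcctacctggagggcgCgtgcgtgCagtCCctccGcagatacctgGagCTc
Across these 75 bases H2-K1 differed from H2-D1 at 13 and H2-Q4 at 15. Identity was taken over aligned coding bases, with gaps left out. H2-D1, with 1086 coding bases, was 91.5% identical to H2-K1 over 1077 aligned bases, with a longest identical run of 91 bases. It was 90.4% identical to H2-Q4, but over 978 aligned bases only, with a longest run of 72. H2-T23 was more distant by this measure, 81.1% identical to H2-D1 over 1070 aligned bases, yet the pair shared a run of 145 bases.

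How far such identity reaches was measured by asking which windows of each longest coding transcript also occur in annotated transcripts of other genes. Neither the read length nor the treatment of reads with several matches is stated in the labels, so 3 window lengths were used. With windows of 100 bases, none of those of H2-K1, B2m and Nlrc5 were shared, 4.64% of those of H2-D1, 7.28% of those of H2-T23 and 13.9% of those of H2-Q4. With windows of 50 bases the shares of H2-T23 and H2-Q4 were 29.8% and 39.2%, and those of H2-D1 and H2-K1 were 14.3% and 8.79%. The levels of H2-T23 and H2-Q4 are thus less certain than those of H2-K1 and B2m. Outside the heavy chains, Tapbp shared 14% of its 100-base windows, nearly all with the gene model Gm19412, and Erap1 13.3%, all with the overlapping gene Cast. Tap1 and Tap2 shared 3.96% and 5.35%.

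**Figure D1:**
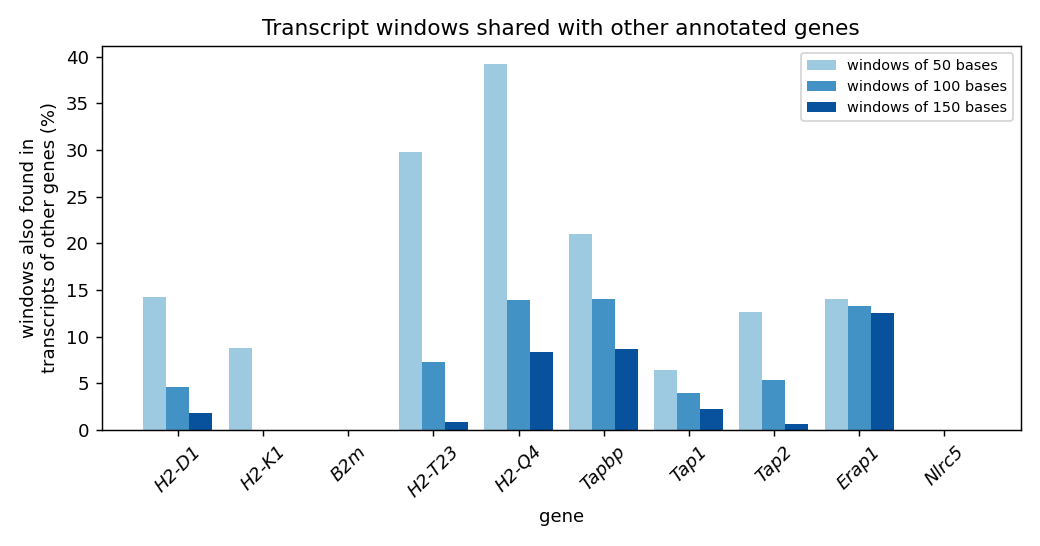
Share of windows of each gene's longest coding transcript (vertical axis, %) that also occur in transcripts of other annotated genes, for windows of 50, 100 and 150 bases (bars from light to dark). H2-Q4 has the highest share at 50 bases (39.2%), while B2m and Nlrc5 share none at any of the 3 lengths.

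H2-D1 and H2-K1, the classical heavy chains that present peptides to CD8 T cells, were among the highest genes of the library. H2-D1 (ENSMUSG00000073411.11, chromosome 17, 35262730 to 35267499, plus, mm10) collected 19197 counts, which is 903 CPM (889.9 to 915) and rank 80 of all entries. H2-K1 (ENSMUSG00000061232.16, chromosome 17, 33996017 to 34000347, minus) collected 16847 counts, which is 792 CPM (780.2 to 804) and rank 106. Per kilobase, H2-D1 stood at 429 and H2-K1 at 489, percentiles 99.3 and 99.4 among 11499 coding genes with at least 10 counts. The order of the pair depended on length. H2-D1 had 1.14 times the counts of H2-K1 (exact 95% interval 1.12 to 1.16), but 0.878 times its counts per kilobase of the longest coding transcript (0.86 to 0.896). RNA was taken from a whole culture, so a level shared by all cells and a higher level in fewer of them cannot be told apart.

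B2m, the light chain that every class I heavy chain needs for its fold and its way to the surface (ENSMUSG00000060802.8, chromosome 2, 122147686 to 122153083, plus), had 18409 counts, or 866 CPM (853 to 878), rank 89. Its transcript is short, and per kilobase it was the highest of the 10 genes at 1006, or 84.7 times the median coding gene. Against H2-D1 and H2-K1 together, B2m had 0.511 times the counts (0.502 to 0.52) and 1.1 times the counts per kilobase of the longest coding transcript (1.08 to 1.12). With the length of all exons the latter ratio was 1.62, so on each of the 3 lengths tried B2m was above the sum of the classical heavy chains per kilobase, and below it in plain counts. H2-D1, H2-K1 and B2m held 88.6% of the counts of the 10 genes.

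**Figure D2:**
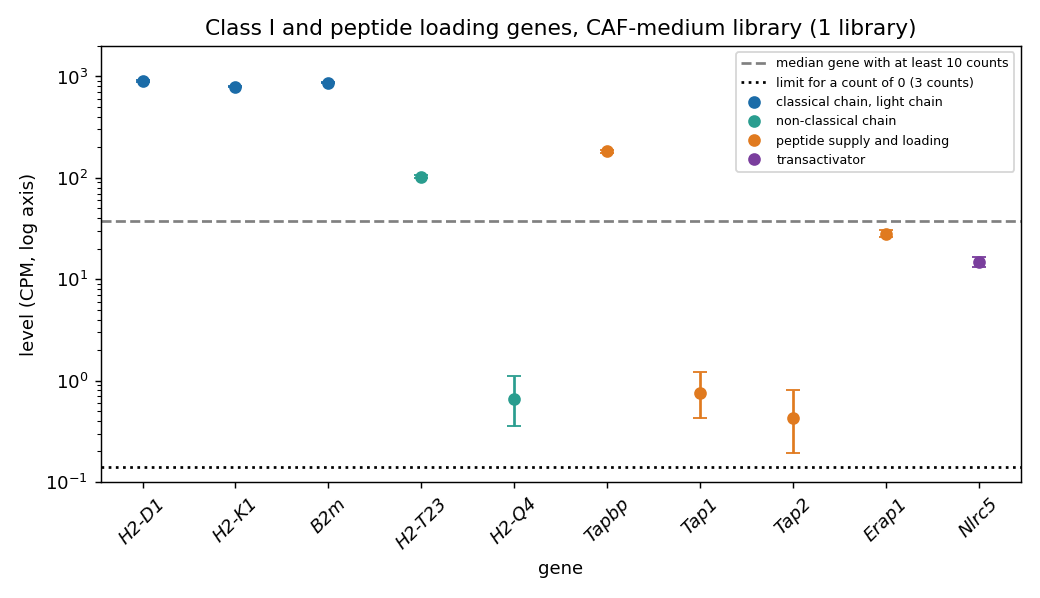
Level of each of the 10 genes in the CAF-medium library (vertical axis, CPM on a log scale), with exact Poisson 95% intervals as bars; the dashed line is the median gene with at least 10 counts and the dotted line the limit for a count of 0. H2-D1, B2m and H2-K1 sit between 792 and 903 CPM, and H2-Q4, Tap1 and Tap2 sit under 1 CPM.

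The levels of the 10 genes were far apart. At or above 100 CPM there were 5 of the 10, where 12.5% of all entries and 23.7% of those with at least 10 counts lay at or above that level. Under 1 CPM there were 3, against 50.2% of all entries, and 2 lay in between. The median of the 10 was 65.5 CPM, and 5 exceeded the median gene. Since the genes were named for their function and not drawn at random, these shares describe them and test nothing.

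H2-T23 and H2-Q4 encode non-classical heavy chains and differed widely. H2-T23 encodes Qa-1, which displays a peptide from the leader of classical class I chains to the inhibitory CD94/NKG2A receptor of NK cells. It lies on chromosome 17, 36029773 to 36032855, minus (ENSMUSG00000067212.8), and had 2186 counts, or 103 CPM (98.5 to 107), 69.8 per kilobase at percentile 90.9. H2-Q4, a gene of the Q region that encodes the Qb-1 antigen, lies on the same chromosome, 35379617 to 35385290, plus (ENSMUSG00000035929.11). It had 14 counts, or 0.658 CPM (0.36 to 1.1), and 0.367 per kilobase at percentile 4.91. While 39.2% of its 50-base windows were shared, 60.8% occurred in no other annotated gene. Exons of the model Gm11131 overlapped 19.1% of its exonic bases.

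The leader peptide shown by Qa-1, known as Qdm, is encoded at the start of the H2-D1 coding sequence. The opening 60 coding bases of the heavy chains are therefore given, with the codons of that peptide in H2-D1 (bases 7 to 33) in capitals.
H2-D1: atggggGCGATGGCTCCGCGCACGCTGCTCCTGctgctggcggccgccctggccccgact
H2-K1: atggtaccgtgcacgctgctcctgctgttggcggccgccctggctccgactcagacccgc
H2-Q4: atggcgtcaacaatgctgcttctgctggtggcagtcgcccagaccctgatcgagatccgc
H2-T23: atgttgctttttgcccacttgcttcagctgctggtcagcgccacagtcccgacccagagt
Among these 4 heavy chains the exact run of 27 bases occurred in H2-D1 alone. The transcript that carries it and the transcript of the chain that presents it were both above the median gene, at 903 and 103 CPM.

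Of the other class I and class I-like genes, 23 were in the table, and 15 of them had under 10 counts, where 47.4% of all entries did. At 0 were 10 of the 23, against 36.6% of all entries, and 2 exceeded the median gene. H2-T22, a non-classical chain recognised by some gamma-delta T cells, stood at 64.9 CPM (61.5 to 68.4) and H2-T24 at 20.1 CPM. In the Q region, H2-Q6 had 1 count and H2-Q1, H2-Q2, H2-Q7 and H2-Q10 were listed at 0. H2-T10 had 6 counts, H2-M3 7 and H2-M5 1, and H2-T3, H2-M2 and H2-M9 were listed at 0. Among the more distant class I-like genes, Azgp1 had 1 count and Cd1d1, Cd1d2 and Mill1 were listed at 0. Over the 18 class I heavy chain entries of the lists, 11 had under 10 counts, and H2-D1 and H2-K1 held 89.9% of the 40080 counts. For an entry at 0, counting error alone allows up to 3 counts, or 0.141 CPM (one-sided), which does not cover an entry that failed to be counted.

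Promoters of 2 heavy chain genes are shown because H2-K1 and H2-Q4 have related upstream sequences and very different counts, with that of B2m beside them. The stretches are from RefSeq (GRCm38.p6), written in the direction of transcription and lying upstream of the start that RefSeq lists. The stretch of H2-Q4 lies within an exon of the antisense model Gm11131. That of H2-D1 is not printed because GENCODE places it in the first exon of an H2-D1 transcript. Capitals mark 4 motifs, searched on either strand: GGNNTNNCC, a very loose form of the NF-kB site, TTTCNNTT, the core of interferon elements, TGACG, the core of the CRE-like X2 box, and CCAAT, the NF-Y box. Matches of the NF-kB form overlap each other in palindromes, and GGGGATTCCCC is such a case. The stretch of H2-K1 spans chr17:34000352-34000521 (minus strand), that of H2-Q4 chr17:35379396-35379549 (plus strand) and that of B2m chr2:122147546-122147642 (plus strand).
H2-K1: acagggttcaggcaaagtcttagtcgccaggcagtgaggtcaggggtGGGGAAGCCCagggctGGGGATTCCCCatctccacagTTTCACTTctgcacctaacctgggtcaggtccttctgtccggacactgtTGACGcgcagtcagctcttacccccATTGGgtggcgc
H2-Q4: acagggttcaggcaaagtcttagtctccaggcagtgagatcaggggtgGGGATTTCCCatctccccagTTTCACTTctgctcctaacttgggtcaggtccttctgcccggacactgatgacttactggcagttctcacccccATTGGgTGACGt
B2m: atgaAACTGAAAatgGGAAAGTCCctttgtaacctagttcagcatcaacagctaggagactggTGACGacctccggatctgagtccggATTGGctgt
All 4 motifs, and TATAAA as well, occurred in the 300-base windows (250 before to 50 after the listed start) of H2-D1, H2-K1, B2m and H2-Q4. The letters were chosen after reading these promoters, so their presence there is no finding. H2-Q4, at 14 counts, had each kind of match that H2-K1, at 16847 counts, had, but not all in the same number or place. Its window held 2 matches of the NF-kB form against 6 in H2-K1, where matches that overlap count separately. It held 2 of TGACG against 1, and as many as H2-K1 of the interferon core (1), CCAAT (2) and TATAAA (1). In the printed stretch of H2-Q4 TGACG follows the CCAAT box, whereas in H2-K1 it precedes it. Whether these matches bear on the levels was not tested.

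Among the other genes of the group with a listed promoter the matches were fewer. Tap1 had TGACG and CCAAT, H2-T23 the interferon core and CCAAT, Tapbp CCAAT alone and Erap1 the interferon core alone. Of all 32851 promoter windows of this length, 47.5% held the NF-kB form, 23.9% the interferon core, 20.8% TGACG, 37.4% CCAAT and 13.6% TATAAA. A match says that these letters are present and nothing of whether a factor bound there. Tap2 and Nlrc5 have no entry in the promoter table used.

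The peptide transporter genes had few counts, unlike the classical heavy chains they serve, and their level is that of many entries, since 50.2% of all entries lay under 1 CPM. Tap1, which encodes one chain of the transporter (ENSMUSG00000037321.17, chromosome 17, 34187553 to 34197225, plus), had 16 counts, or 0.752 CPM (0.43 to 1.22), and 0.255 per kilobase, percentile 2.98 among coding genes with at least 10 counts and percentile 49.2 by CPM among all entries. Tap2, which encodes the partner chain (ENSMUSG00000024339.12, chromosome 17, 34203527 to 34216321, plus), had 9 counts, or 0.423 CPM (0.193 to 0.803), and 0.123 per kilobase, at percentile 47.2 by CPM among all entries. The ratio of their counts was 1.78, with an interval of 0.74 to 4.56, so no difference between the chains was detectable at this depth. The chains work as a pair, and both genes had few counts in this table. Exons of Gm15821 and Gm20496 overlapped 18.5% of the exonic bases of Tap2, and 12.6% of its 50-base windows were shared. Since the counting rule is not given, reads of either gene that were left uncounted cannot be told from a low level.

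Tapbp, the gene of tapasin, which holds the heavy chain beside TAP and favours tightly bound peptides, was far above them. It had 3889 counts, or 183 CPM (177 to 189), and 63.1 per kilobase at percentile 89.6 (ENSMUSG00000024308.15, chromosome 17, 33915899 to 33929292, plus). Tapbp had 243 times the counts of Tap1 (149 to 426) and 248 times its counts per kilobase. Exons of Gm19412 and Zbtb22 overlapped 29% of its exonic bases, and Zbtb22 itself stood at 27.1 CPM. The TAP-free relative Tapbpl, which also edits peptides, stood at 41 CPM.

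Erap1, the peptidase that trims peptides to length in the endoplasmic reticulum, lies on chromosome 13, 74639568 to 74693201, plus (ENSMUSG00000021583.7). It had 600 counts, or 28.2 CPM (26 to 30.6), and 5 per kilobase at percentile 29.8. The end of Erap1 overlaps exons of Cast, the calpain inhibitor gene, on the minus strand over 11.5% of its exonic bases. Cast stood at 176 CPM, and because the strand setting of the counting is not given, counts from that stretch cannot be assigned to either gene. Nlrc5 (ENSMUSG00000074151.13, chromosome 8, 94434356 to 94527272, plus) had 315 counts, or 14.8 CPM (13.2 to 16.5), and 1.95 per kilobase at percentile 16.8. Both genes were below the median gene on either scale, while H2-D1, H2-K1 and B2m, on which Nlrc5 acts, were above percentile 99.

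**Figure D3:**
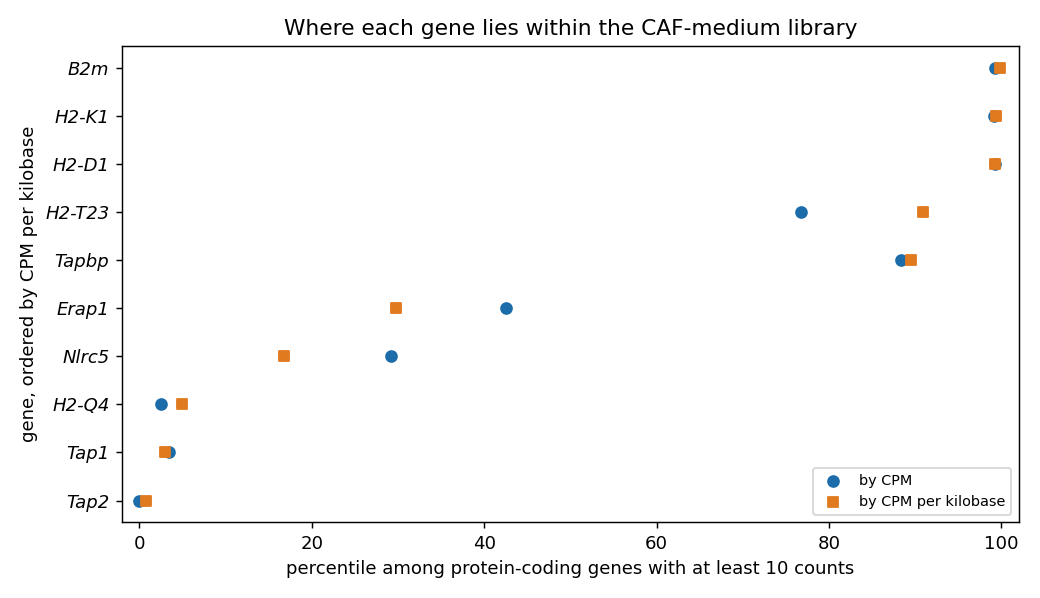
Percentile of each gene (horizontal axis) among protein-coding genes with at least 10 counts, by CPM (circles) and by CPM per kilobase of the longest coding transcript (squares), with genes ordered by the latter; Tap2, with 9 counts, lies outside that set. H2-D1, H2-K1 and B2m are above 99 on either scale, and Erap1 moves from 42.5 to 29.8 once length is counted.

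Tap1 and Tap2 lie beside the immunoproteasome genes Psmb9 and Psmb8, whose interferon-induced subunits replace those of the standard proteasome and alter which peptides are made. The order along the chromosome is Psmb9, Tap1, Psmb8, Tap2. Psmb9 had 1 count and Psmb8 was listed at 0, so all 4 genes were under 1 CPM. Among the 12 protein-coding genes within 100 kb of Tap1, 10 were under 1 CPM, against 50.2% of coding entries. The exceptions were Brd2, a chromatin reader found in most cells, at 498 CPM and the class II chaperone gene H2-DMa at 2.68 CPM. The other 6 under 1 CPM were class II genes, known mainly from antigen-presenting cells: H2-DMb1 had 7 counts, and H2-Oa, H2-DMb2, H2-Ob, H2-Ab1 and H2-Aa were listed at 0. Tap1 and Psmb9 overlap over 3.87% of the exonic bases of Tap1.

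**Figure D4:**
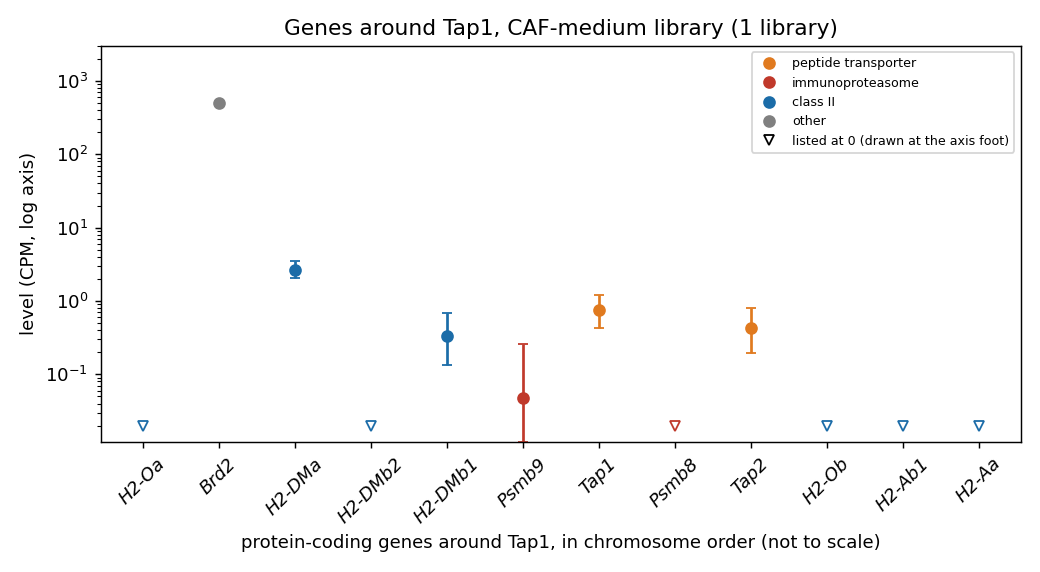
Levels of the 12 protein-coding genes within 100 kb of Tap1 in chromosome order (vertical axis, CPM on a log scale; bars are exact Poisson 95% intervals, that of Psmb9 running below the axis; open triangles are genes listed at 0). Tap1, Tap2, Psmb8 and Psmb9 are all under 1 CPM, and Brd2 stands at 498 CPM.

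The rest of the proteasome did not share that level. Psmb5, Psmb6 and Psmb7, the standard catalytic subunits, stood at 108, 161 and 190.3 CPM. The lowest of 31 standard proteasome subunits, a set chosen after the values were seen, was Psmd13 at 74.9 CPM. Psmb10, the third immunoproteasome subunit, which lies on another chromosome than Tap1, stood at 15.6 CPM (14 to 17.4). The interferon-induced activator genes Psme1 and Psme2 stood at 46.2 and 27.2 CPM, or 41.5 and 28.2 per kilobase, and Psme3, which is not part of that pair, at 329 CPM.

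Most loading partners outside the MHC region were well above the median gene. The 12 listed chaperones and editors were all above the median gene, and their own median was 297 CPM, with Tapbpl the lowest at 1.08 times the median gene. Calreticulin, Calr, which holds the heavy chain in the loading complex, stood at 1658 CPM (1641 to 1676), and Pdia3, its disulfide isomerase partner, at 1138 CPM, or 759 and 411 per kilobase. P4hb, another disulfide isomerase, followed at 1035 CPM. These proteins serve the folding of many glycoproteins. Peptidases that act on class I peptides in the cytosol or in endosomes were above the median gene in 7 of 8 cases, led by Npepps at 228 CPM, Tpp2 at 189.9 CPM and Nrd1 at 177 CPM, with Ide listed at 0.

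**Figure D5:**
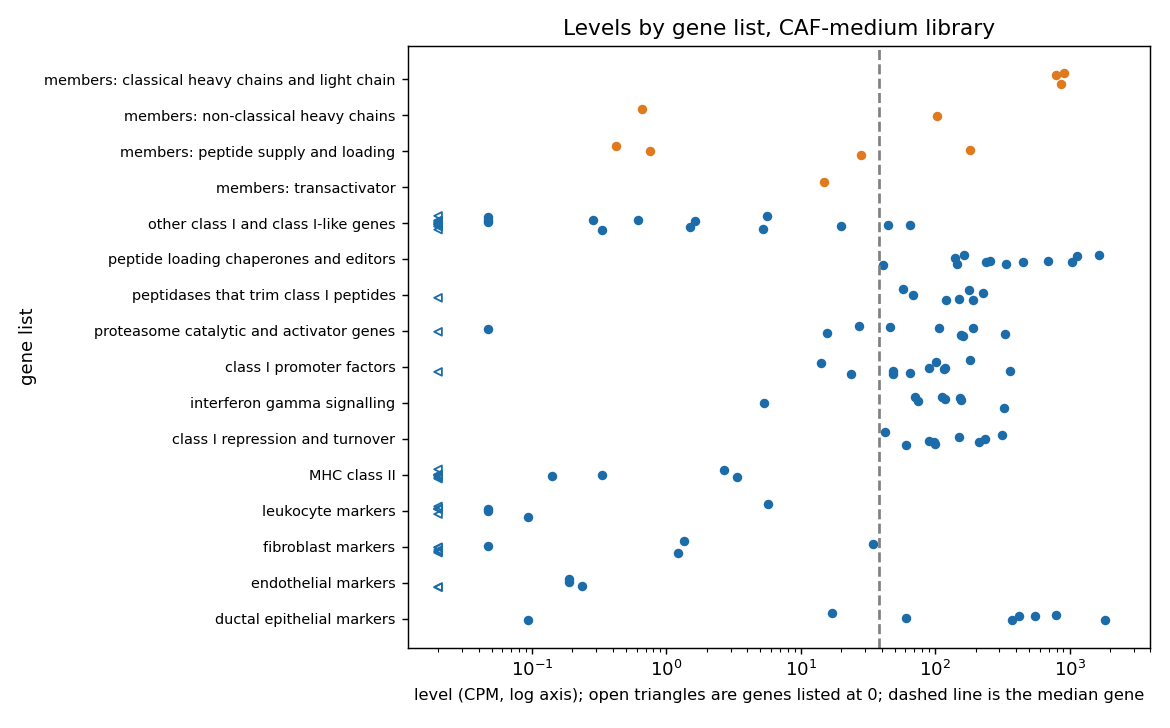
Levels of the genes of each list (horizontal axis, CPM on a log scale; 1 point per gene, orange for the 10 genes described and blue for the other lists; open triangles are genes listed at 0; the dashed line is the median gene). The peptide loading chaperones lie wholly above the median gene (their own median is 297 CPM), and the class II and leukocyte lists lie wholly below it.

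Factors that act on class I promoters differed widely in level. Of 12, 9 exceeded the median gene, with Nfkb1 and Rela, subunits of NF-kB, at 359 and 181 CPM and Atf1, a CRE-binding factor, at 118 CPM. The RFX subunits, through which Nlrc5 reaches the promoter, stood at 89.8 CPM for Rfx5, 65.5 CPM for Rfxap and 14.2 CPM for Rfxank. Nfya, a subunit of the CCAAT factor NF-Y, was listed at 0 while its partners Nfyb and Nfyc stood at 101 and 23.5 CPM. NF-Y needs all 3 subunits and serves many genes, so this is another 0 that is not read as absence.

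The interferon gamma pathway, the classical inducer of Tap1, Psmb8, Psmb9 and Nlrc5, was itself represented. Of its 8 genes, 7 exceeded the median gene, with Irf9 at 156 CPM (151 to 161) and Jak1 at 154 CPM (149 to 159). The receptor genes Ifngr1 and Ifngr2 stood at 74.6 and 71.3 CPM, and Irf1, the factor that carries the signal to class I promoters, at 48.5 CPM. Socs1, the feedback inhibitor, was low at 5.36 CPM. Isg15 and Cxcl10, 2 interferon-induced genes outside the lists and chosen after their values were seen, stood at 602 and 441 CPM in the same library. Per kilobase they stood at 796 and 326, against 0.255 for Tap1 and 0.123 for Tap2. Other interferon-induced genes named above were spread widely, with Psmb8 at 0, Psmb9 at 1 count, Nlrc5 at 14.8 CPM and Psme1 at 46.2 CPM. Higher still were Tapbp at 183 CPM and H2-K1, B2m and H2-D1 at 792, 866 and 903 CPM. Interferon-induced genes were not compared as a set, and whether interferon acted on these cells was not tested.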

How the data were processed

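The deposited values are whole-number counts per gene symbol, made by the authors and not scaled. The submitters' processing notes name HISAT2 2.1.0, StringTie and mm10, with no role for each. How reads were counted, on which strand, with which read length and annotation is not given in the sources used here. Of 2 value columns in the table, the 1 whose name matched neither library's labels was not used, so the media were not compared.

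CPM were computed with the library total of 21269197. Intervals are exact Poisson, or exact binomial for 4 ratios of counts, at 95%. They were run on counts simulated from a Poisson distribution, which checks how they were computed and not whether real counts follow it. The intervals cover counting error only, since reads may be copies of 1 molecule. Lengths, coordinates (1-based) and transcript windows came from GENCODE M21, to which 21900 symbols (99.6%) matched, and windows were searched on either strand. Coding sequences were aligned globally with Biopython 1.88. Promoters came from RefSeq (GRCm38.p6), with 8 of the 10 genes matched.

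The 10 genes, the 12 other gene lists, the thresholds and the ratios were chosen with earlier results of these data known. Named are all 10 genes and, of each list, the 3 highest and those under 10 counts, plus a few more chosen after their values were seen. A few genes of the lists are not reported here. Alternatives were other totals, other backgrounds and other gene lengths. Tables were made with pandas 2.3.3 and numpy 2.4.6, intervals with scipy 1.17.1 and plots with matplotlib 3.10.9, in Python 3.11.15.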

Additional observations from a re-analysis of the deposited data

How the results depend on the processing

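Some comparisons between genes depended on the length used. B2m against H2-D1 and H2-K1 together was 0.511 in counts but 1.62 per kilobase of all exons, 1.18 per kilobase of the longest transcript and 1.1 per kilobase of the longest coding transcript. H2-D1 against H2-K1 was 1.14 in counts, 1.3 and 1.02 by the same 2 first lengths and 0.878 by the last, a length added after seeing the data. The ratios of Tapbp to Tap1 and of Tap1 to Tap2 stayed within their counting intervals on each of these lengths. Without the 100 highest entries in the total, levels rose to 1043 CPM for H2-D1, 914.9 for H2-K1, 999.8 for B2m, 119 for H2-T23, 211 for Tapbp, 32.6 for Erap1 and 17.1 for Nlrc5, with a median over the 10 genes of 75.7, because the total was smaller. H2-Q4, Tap1 and Tap2 stayed within their intervals there, and all 10 did without the mitochondrial genome genes. The number of the 10 above the median gene was 5, and 7 when all entries set the median. At the depth of 1 library, values under about 10 counts cannot be ordered, and nothing here says how far a second culture would differ. No paired analysis was possible because the values come from 1 library.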

Other observations

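Genes of the MHC class II pathway, which presents peptides to CD4 T cells, were at or near 0. Of 11 in the table, 9 had under 10 counts, where 47.4% of all entries did. Listed at 0 were 7 of the 11 (H2-Aa, H2-Ab1, H2-Eb1, H2-DMb2, H2-Oa, H2-Ob and Ctss), against 36.6% of all entries. Ciita, the transactivator of class II genes, had 3 counts and H2-DMb1 7. The invariant chain gene Cd74 stood at 3.34 CPM and H2-DMa at 2.68 CPM.

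Genes of the list drawn up for class I repression and turnover were all above the median gene, 9 of 9 in the table. Whether each of them acts on class I genes or chains in these cells was not tested. All 9 had at least 10 counts, and of all such entries as many lie above the median gene as below it. The tally describes a chosen list and tests nothing. The Polycomb subunits Suz12, Ezh2 and Eed stood at 213, 99.4 and 60.3 CPM. Nbr1, an autophagy receptor for class I molecules described in pancreatic cancer cells, stood at 313 CPM (305 to 320.3), and Syvn1, a ubiquitin ligase of the endoplasmic reticulum, at 235 CPM. Class I-like proteins with other tasks were low to moderate. Procr, the endothelial protein C receptor, stood at 44.3 CPM, the iron regulator Hfe at 5.59 CPM and Mr1, which presents vitamin metabolites, at 5.27 CPM.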
